A study of Drosophila melanogaster with 12 samples.

Results

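The 9 genes *crb*, *sdt*, *Patj*, *eys*, *prom*, *chp*, *Moe*, *par-6* and *baz* build or polarise the light-gathering apical surface of the fly photoreceptor. They were listed by symbol for their roles, with earlier results of these data already known, and their FlyBase identifiers were all found among the 13929 genes of the deposited table. All 9 had enough counts to be tested in every comparison. Each was followed over 12 RNA-seq libraries of photoreceptor nuclei, by genotype and by age.

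Each photoreceptor of the fly eye folds its apical membrane into a rhabdomere, a stack of microvilli that holds rhodopsin and the channels of the light response. A stalk membrane joins the rhabdomere to the adherens junction, and a fluid-filled space separates the rhabdomeres of 1 ommatidium. The Crumbs complex marks the stalk: Crumbs (*crb*) is a transmembrane protein whose short inner tail binds the scaffold Stardust (*sdt*), which in turn holds the PDZ protein *Patj*. Bazooka (*baz*) and *par-6* belong to the Par module, which sets apical polarity in epithelia. Chaoptin (*chp*) is an adhesion protein that holds neighbouring microvilli together. Prominin (*prom*) is a membrane protein of the microvilli, and *eys*, also called spacemaker, is the secreted matrix protein that opens the space between rhabdomeres. Moesin (*Moe*) ties actin filaments to the membrane. In flies, loss of *crb* shortens the stalk and makes photoreceptors degenerate in light.

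The study asked what a dominant negative Clock does to gene expression in these cells. All flies were males on a *w* background with the *ry[506]* allele. They carried rh1-GAL4 and UAS-GFP-Msp300KASH, a nuclear envelope tag by which nuclei were immuno-enriched, and either UAS-ClkDN (Rh1>ClkDN) or UAS-LacZ (Rh1>Ctrl). ClkDN lacks the DNA-binding region of Clock and still pairs with Cycle. The Rh1 driver is active only in the outer photoreceptors and only from late pupal life, and each sample pooled many flies. They lived at 25 degrees C under alternating 12 h of light and 12 h of darkness and were collected at ZT 9. Each genotype was taken at D1 and at D10, which gave 4 groups of 3 biological replicates. The titles of the samples give day 2 for the younger flies, while the growth protocol and the paper call them D1. *Clk*, whose counts include the transgene, was between 5183 and 9700 CPM in the 6 Rh1>ClkDN libraries and between 20.4 and 77.8 CPM in the 6 Rh1>Ctrl libraries. CPM are the counts of a gene scaled to a common library size, here after TMM normalization, which corrects totals for genes that take a large share of the reads.

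The libraries held between 1356529 and 5635951 counts. A pair of control libraries stood apart. Replicate 3 of Rh1>Ctrl at D1 had counts on 13097 genes, where the other 11 libraries had between 9267 and 11915. It was the lowest of its group for all 9 members, at 0.367 to 0.606 times the mean of the other replicates, and for 77.5% of the 4289 genes that averaged 50 counts or more. Replicate 2 of Rh1>Ctrl at D10 had the lowest total, and its members lay between 0.229 and 2.17 times the mean of the other replicates. Differences between genotypes in the members are given with and without these libraries, as are calls in the other lists that changed without them. The summed level of 10 outer photoreceptor markers, such as *ninaE* and *trp*, was between 23498 and 32632 CPM in Rh1>ClkDN and between 45393 and 100813 CPM in Rh1>Ctrl, and none of the 10 was at 0 in any group. In bulk nuclei, fewer cells of a type and less RNA per cell cannot be told apart. In its eye images, the paper found intact photoreceptors in Rh1>ClkDN flies at D1 and progressive retinal degeneration by D10 under light and dark cycles. The part of this in the values at D10 was not tested.

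Levels of the members were compared per length, since longer genes gather more reads. At D1 *chp* led in Rh1>Ctrl with 1971 ± 864 CPM per kb of exon (SD, n = 3). It was followed by *prom* at 779 ± 338, *eys* at 536 ± 218, *Moe* at 459 ± 148 and *crb* at 412 ± 142 CPM per kb. *sdt* had 150.1 ± 54.3 and *baz* 54.5 ± 16.8 CPM per kb. *Patj* and *par-6* were the lowest, at 17.9 ± 8.31 and 8.45 ± 2.80 CPM per kb. The ranges of neighbours in this order overlapped from *chp* down to *crb*, and again for *Patj* and *par-6*. They did not overlap between *crb* and *sdt*, *sdt* and *baz*, or *baz* and *Patj*. In Rh1>ClkDN at D1 the order was different, with *prom* in the fifth place at 170.5 ± 30.1 CPM per kb and *crb* in the sixth at 117.2 ± 14.1. *chp* remained first at 728 ± 98.2 CPM per kb, and *sdt*, at 181.6 ± 21.0, stood above *crb* in all 3 libraries. At D10 *chp* again led in both genotypes, with 1636 ± 536 CPM per kb in Rh1>Ctrl and 808 ± 88.4 in Rh1>ClkDN. Together the 9 genes took between 1.68% and 2.67% of the counts of a control library and between 0.949% and 1.21% of those of a Rh1>ClkDN library.

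**Figure D1:**
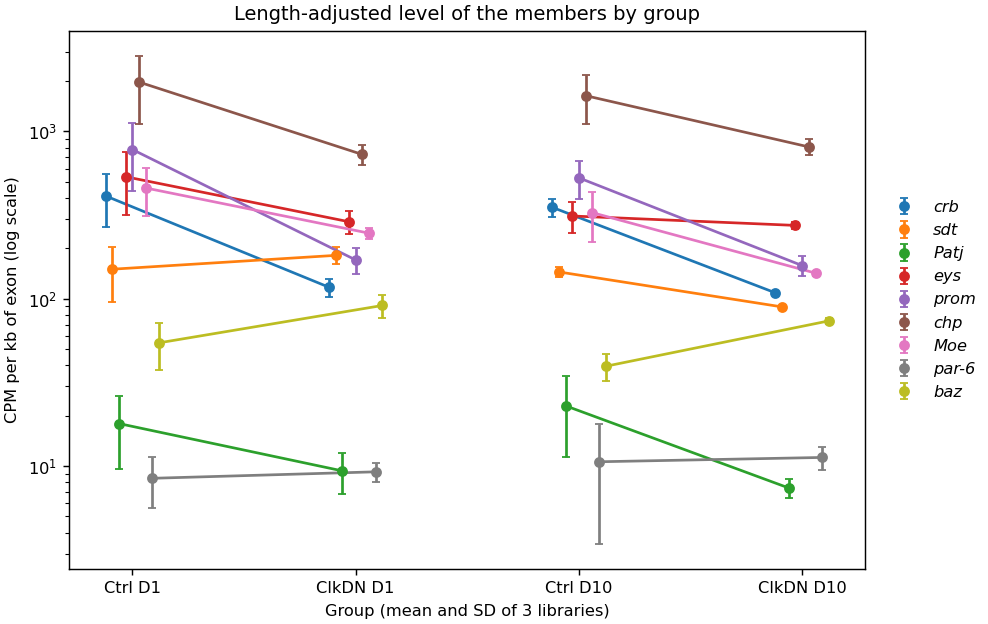
Level of each member in CPM per kb of exon (log axis) in the 4 groups, as the mean and SD of 3 libraries, with lines joining the genotypes of 1 age. *chp* was highest in every group, with 1971 CPM per kb in Rh1>Ctrl at D1, and *par-6* or *Patj* was lowest.

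With ClkDN, most of the genes that shape the microvillar and stalk membranes had less nuclear RNA, *baz* had more, and *par-6* was called at neither age. At D1, 5 of the 9 members were called down (*crb*, *eys*, *prom*, *chp* and *Moe*) and *baz* was called up. Over all 8220 genes tested there, 16.1% were called, 5.86% down and 10.2% up. At D10, 6 of 9 were called down (*crb*, *sdt*, *Patj*, *prom*, *chp* and *Moe*) and *baz* again up, against 8.20% down and 15.0% up, or 23.2% in all, of 7875 genes. A call required a Benjamini-Hochberg adjusted p under 0.05 in edgeR's quasi-likelihood test and a fold change over 1.5. The median log2 fold change of the members was -0.92 at D1 and -1.03 at D10, beside 0.04 and 0.01 over all genes tested. All Rh1>ClkDN libraries lay below all controls for 4 members at D1 (10.4% of all genes) and for 6 at D10 (16.1%). Without replicate 3 of Rh1>Ctrl at D1, 6 members were called down at D1 and none up, beside 10.6% and 17.8% of all genes. Without replicate 2 of Rh1>Ctrl, or replicate 2 or 3 of Rh1>ClkDN, 3 were called down at D1 (*crb*, *prom* and *chp*) and none up. With these left out in turn, 298 of 8030, 274 of 7773 and 252 of 7761 genes were called down, beside 482 with all libraries. Genes called up were 604, 530 and 496, beside 842. Without replicate 1 of Rh1>Ctrl *baz* was not called, where 628 of 8073 genes were called up. Without replicate 2 of Rh1>Ctrl at D10, 6 were called down and 1 up at D10, beside 11.8% and 19.5% of all genes. When 1 of the Rh1>ClkDN libraries at D10 was left out, only *crb* and *prom* were still called there, whichever it was. Calls fell over all genes as well. For replicates 1 to 3 in turn, 168 of 6964, 159 of 7008 and 155 of 7006 genes were called down, beside 646 of 7875 with all libraries. Genes called up were 377, 393 and 397, beside 1180.

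**Figure D2:**
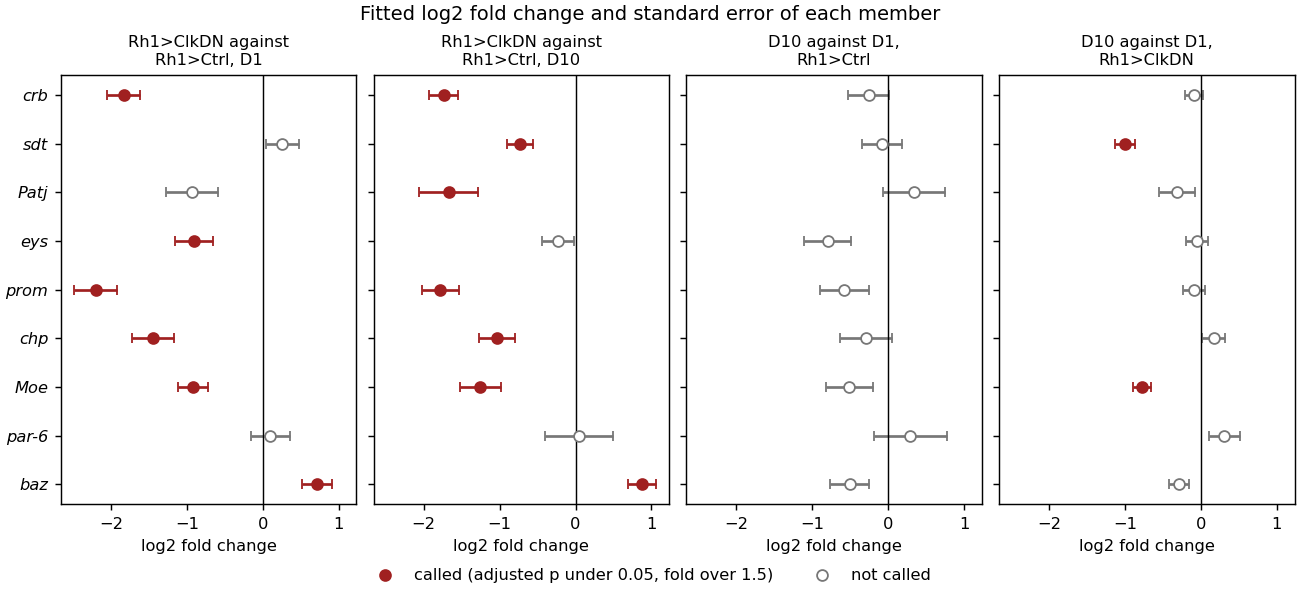
Fitted log2 fold change (horizontal axis) with its standard error for each member in the comparisons of genotypes and of ages. Filled points passed both thresholds. *crb* and *prom* lie between -1.74 and -2.20 at both ages, *baz* lies above 0 at both, and in Rh1>Ctrl no member was called between ages.

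Nuclear RNA of *crb*, which encodes the membrane protein of the Crumbs complex, was lower in Rh1>ClkDN at both ages. *crb* (FBgn0259685, chromosome 3R from 24295078 to 24314541 on dm6, plus strand) had 4190, 3836 and 2030 CPM in replicates 1 to 3 of Rh1>Ctrl at D1, and 823, 1002 and 1038 CPM in Rh1>ClkDN. The groups did not overlap, and even the low control replicate lay well above the highest Rh1>ClkDN library. The fitted log2 fold change was -1.83 (standard error, SE, 0.22, adjusted p = 0.000414), and -2.01 without the low control replicate. At D10 *crb* was at 2479, 3181 and 2939 CPM against 908, 872 and 869.6 CPM. Again all Rh1>ClkDN libraries were below all controls, with a log2 fold change of -1.74 (SE 0.19, adjusted p = 0.000322), or -1.60 without replicate 2 of Rh1>Ctrl. Only 1.16% of the genes tested at D1 and 1.63% of those at D10 had a lower log2 fold change.

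RNA of *sdt*, which encodes the cytoplasmic scaffold, behaved differently at the younger age. *sdt* (FBgn0261873, chromosome X from 8178549 to 8240474, plus strand) was at 1993, 2014 and 964.5 CPM in Rh1>Ctrl at D1 and at 1755, 2212 and 2048 CPM in Rh1>ClkDN. The groups overlapped, and the log2 fold change of 0.26 (SE 0.22, adjusted p = 0.504) became 0.06 without the low control replicate. At D10 *sdt* was at 1481, 1674 and 1634 CPM in Rh1>Ctrl and at 975, 981 and 1004 CPM in Rh1>ClkDN. These groups did not overlap, and *sdt* was called down with a log2 fold change of -0.73 (SE 0.17, adjusted p = 0.0141), or -0.64 without replicate 2 of Rh1>Ctrl. In 4 of the 12 alternatives it was not called at D10. RNA of *Patj* (FBgn0067864, chromosome 3L from 1798803 to 1802184, plus strand), the gene of the third protein of the complex, was much rarer. It had 75.1, 74.7 and 27.5 CPM in Rh1>Ctrl at D1 and 38.3, 32.6 and 21.5 CPM in Rh1>ClkDN. Only the low control replicate reached into the Rh1>ClkDN range, and the log2 fold change of -0.94 (SE 0.35) was not called (adjusted p = 0.103), while without that replicate it was -1.21 and was called (adjusted p = 0.00465). At D10 *Patj* had 42.6, 117.8 and 66.2 CPM against 27.9, 21.7 and 23.4 CPM. The controls were widely spread but all higher, and the log2 fold change of -1.67 (SE 0.39, adjusted p = 0.0144) was -1.15 without replicate 2 of Rh1>Ctrl, still called. In 3 of the 12 alternatives *Patj* was not called at D10.

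**Figure D3:**
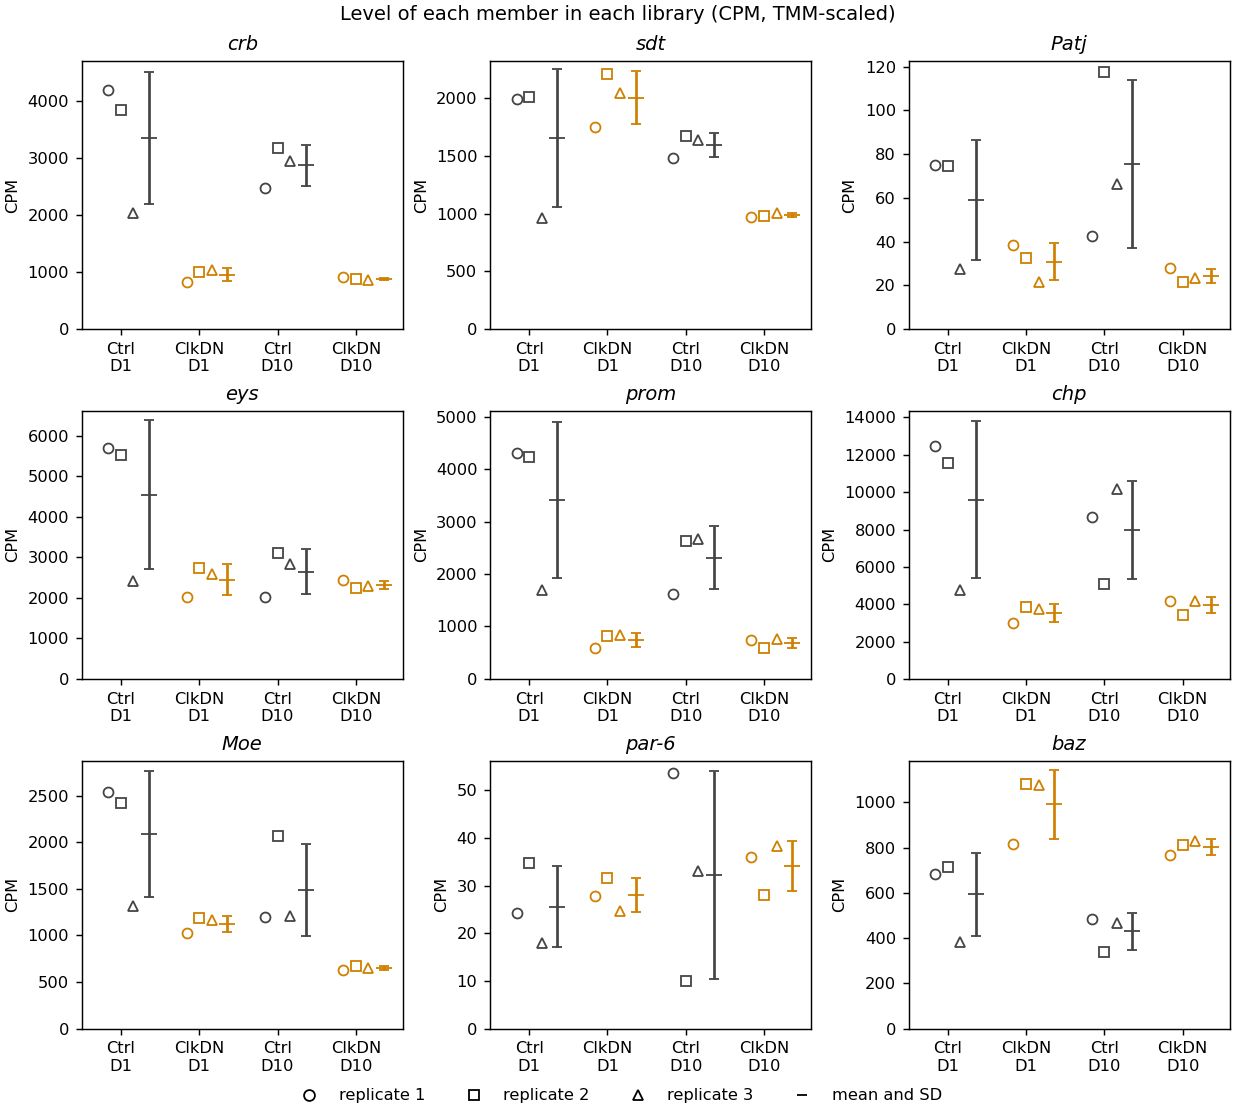
CPM of each member in each of the 12 libraries, by group, with the mean and SD of each group beside the points (vertical axes start at 0 and differ between panels). Replicates 1, 2 and 3 are a circle, a square and a triangle, grey for Rh1>Ctrl and orange for Rh1>ClkDN, and the triangle of Rh1>Ctrl at D1 is the lowest of its group in every panel.

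Of the genes whose proteins face the space between rhabdomeres, *prom* changed most in RNA. *prom* (FBgn0259210, chromosome 2R from 24415410 to 24428387, minus strand) was at 4303, 4232 and 1702 CPM in Rh1>Ctrl at D1 and at 595, 812 and 833 CPM in Rh1>ClkDN. All control libraries lay above all Rh1>ClkDN libraries. The log2 fold change of -2.20 (SE 0.28, adjusted p = 0.000577) was the largest of any member, and 0.450% of all genes tested had a lower one. Without the low control replicate it was -2.46. At D10 *prom* had 1624, 2636 and 2673 CPM in Rh1>Ctrl and 737, 581 and 755 CPM in Rh1>ClkDN. The log2 fold change was -1.78 (SE 0.25, adjusted p = 0.00117), or -1.62 without replicate 2 of Rh1>Ctrl.

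RNA of *chp*, the most abundant member, was lowered less in proportion but by the most CPM. *chp* (FBgn0267435, chromosome 3R from 31204180 to 31210730, minus strand) was at 12462, 11578 and 4771 CPM in Rh1>Ctrl at D1. In Rh1>ClkDN it was at 2997, 3873 and 3767 CPM, below every control library. Its log2 fold change was -1.45 (SE 0.28, adjusted p = 0.00617), or -1.70 without the low control replicate. At D10 *chp* was at 8665, 5080 and 10163 CPM against 4180, 3438 and 4187 CPM, a log2 fold change of -1.03 (SE 0.24, adjusted p = 0.0139). The lowest control there was replicate 2, and without it the log2 fold change was -1.24.

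The matrix protein gene *eys* (FBgn0031414, chromosome 2L from 2311680 to 2358944, plus strand) gave a result that turned on single libraries. At D1 it had 5700, 5517 and 2417 CPM in Rh1>Ctrl and 2017, 2732 and 2590 CPM in Rh1>ClkDN. Control replicates 1 and 2 were far above the Rh1>ClkDN libraries, and replicate 3 lay within their range. The log2 fold change of -0.91 (SE 0.25) was called (adjusted p = 0.0377) and was -1.14 without that replicate, but it was not called in 7 of the 12 alternatives. At D10 *eys* was at 2014, 3103 and 2827 CPM against 2439, 2253 and 2285 CPM. The groups overlapped, with a log2 fold change of -0.23 (SE 0.21, adjusted p = 0.485), or -0.04 without replicate 2 of Rh1>Ctrl.

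RNA of *Moe* was lower in Rh1>ClkDN at both ages. *Moe* (FBgn0011661, chromosome X from 8873012 to 8898332, minus strand) was at 2538, 2423 and 1315 CPM in Rh1>Ctrl at D1 and at 1024, 1182 and 1163 CPM in Rh1>ClkDN. The lowest control was just above the highest Rh1>ClkDN library. The log2 fold change was -0.92 (SE 0.20, adjusted p = 0.0113), or -1.08 without the low control replicate. It was not called in 4 of the 12 alternatives. At D10 *Moe* was at 1202, 2062 and 1206 CPM in Rh1>Ctrl and at 626, 669.7 and 649 CPM in Rh1>ClkDN. Replicate 2 was the high control here, and the log2 fold change of -1.25 (SE 0.27, adjusted p = 0.00991) was -0.88 without it, still called. In 3 of the 12 alternatives *Moe* was not called at D10.

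Of the Par module genes, *baz* moved opposite to *crb*, and *par-6* was not called. *baz* (FBgn0000163, chromosome X from 17160006 to 17200728, plus strand), the fly Par-3, had 682, 714 and 383 CPM in Rh1>Ctrl at D1 and 816, 1081 and 1078 CPM in Rh1>ClkDN. The groups did not overlap, which held for 21.0% of all genes in the upward direction. *baz* was the only member called up, with a log2 fold change of 0.72 (SE 0.20, adjusted p = 0.0340). Of the genes tested, 78.07% had a lower one. Without the low control replicate the change was 0.57 (adjusted p = 0.00453), under the 1.5-fold threshold, and 8 of the 12 alternatives did not call it. At D10 *baz* was at 485, 337 and 467 CPM against 765, 811 and 831 CPM, a log2 fold change of 0.88 (SE 0.18, adjusted p = 0.00871) with no overlap, or 0.77 without replicate 2 of Rh1>Ctrl. At that age 25.5% of all genes were higher with no overlap, and 77.35% of the genes tested had a lower log2 fold change than *baz*. It was not called in 3 of the 12 alternatives at D10. *par-6* (FBgn0026192, chromosome X from 17703352 to 17707096, plus strand), the PDZ partner of aPKC, was the least expressed per length in 3 of the 4 groups, with 15 to 182 counts per library. It was at 24.3, 34.7 and 17.9 CPM in Rh1>Ctrl and at 27.8, 31.6 and 24.6 CPM in Rh1>ClkDN at D1, with groups that overlapped. Its log2 fold change was 0.10 at D1 (SE 0.26, adjusted p = 0.845) and 0.05 at D10 (SE 0.45, adjusted p = 0.958). Without the control library that stood apart it was -0.01 and -0.31, and not called. At D10 the control libraries ranged from 9.92 to 53.6 CPM, and a change of the size seen in *baz* would lie within 2 standard errors of 0.

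Exons of other genes on the opposite strand overlap 177 bases of *Patj* (*JTBR*), 67 bases of *eys* (*CG9967*) and 3 bases of *baz* (*TTLL1A*), and whether reads were counted by strand is not given in the sources used here. These neighbours had mean counts of 22.3, 50.2 and 2.42 per library.

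Ratios between members of 1 library do not depend on how libraries are scaled, so they were compared as well. The pairs were chosen after the values had been seen, and no test is given. Per kb of exon, there were 2.85, 2.58 and 2.85 *crb* counts for each *sdt* count in Rh1>Ctrl at D1, and 0.636, 0.614 and 0.687 in Rh1>ClkDN. The low control replicate was not apart from the others on this measure, and the genotypes differed 4.28-fold. At D10 the ratio was 2.27, 2.58 and 2.44 in Rh1>Ctrl and 1.26, 1.21 and 1.17 in Rh1>ClkDN, a 2.00-fold difference. In Rh1>ClkDN the ratio was thus higher at D10 than at D1 in all libraries. The ratio of *crb* to *baz* was 7.49 ± 0.623 in Rh1>Ctrl and 1.29 ± 0.0544 in Rh1>ClkDN at D1 (SD, n = 3), and 9.29 ± 2.99 and 1.47 ± 0.0985 at D10. The control ratio to *baz* was most spread at D10, where replicate 2 had 12.6. For the membrane and matrix pair, there were 1.44 ± 0.0647 *prom* counts per *eys* count in Rh1>Ctrl and 0.590 ± 0.0283 in Rh1>ClkDN at D1, and 1.68 ± 0.139 and 0.575 ± 0.0704 at D10. The genotypes were apart at both ages, by 2.44-fold and 2.93-fold. The ratio of *chp* to *eys* was also lower in Rh1>ClkDN at D1, at 2.53 ± 0.0594 against 3.63 ± 0.185. At D10 it was 2.94 ± 0.269 against 5.53 ± 2.40, with an overlap through replicate 2 of Rh1>Ctrl at 2.85.

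**Figure D4:**
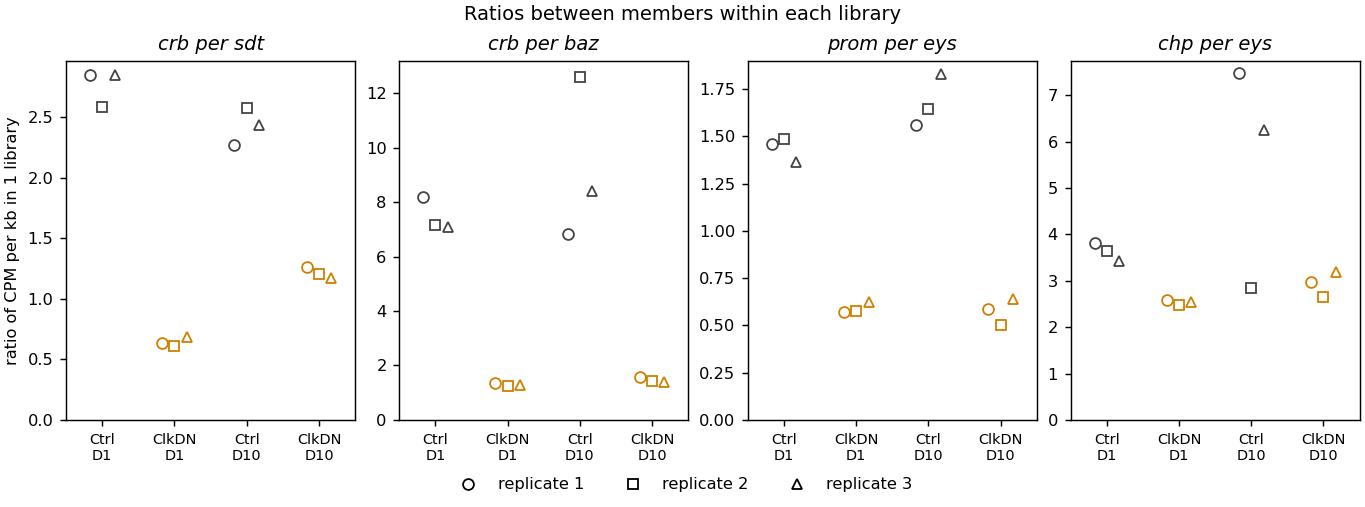
Ratio of 1 member to another in each library, in CPM per kb of exon (vertical axes start at 0 and differ between panels), by group. The ratios of *crb* to *sdt*, *crb* to *baz* and *prom* to *eys* do not overlap between genotypes at either age, while those of *chp* to *eys* overlap at D10 (circle, square and triangle for replicates 1, 2 and 3, grey for Rh1>Ctrl and orange for Rh1>ClkDN).

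No member passed the test for age in controls with all libraries in the fit. Between D1 and D10 none of the 9 was called in Rh1>Ctrl, where 0.525% of 7239 genes were (0.332% down and 0.193% up), and only *eys* had an unadjusted p under 0.05. The ages overlapped for all 9 members, while 8.55% of all genes were higher and 7.05% lower at D10 with no overlap. The lowest values were -0.80 for *eys* (SE 0.31, adjusted p = 0.364), -0.58 for *prom* (SE 0.32, adjusted p = 0.565) and -0.51 for *Moe* (SE 0.31, adjusted p = 0.593). These 3 were called down when both control libraries that stood apart were left out, with log2 fold changes of -1.17, -0.95 and -0.99 (adjusted p = 0.00533, 0.0282 and 0.00514), in a fit of 2 libraries against 2 chosen after the data had been seen. DESeq2 called none of the 9.

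In Rh1>ClkDN 2 members fell in RNA from D1 to D10, the scaffold gene *sdt* and the actin linker gene *Moe*, while 14.6% of 8451 genes were called, 6.18% down and 8.45% up. The log2 fold change of *sdt* was -1.0 (SE 0.13, adjusted p = 5.48e-05), from 1755 to 2212 CPM at D1 to 975 to 1004 CPM at D10. *Moe* went from between 1024 and 1182 CPM to between 626 and 669.7 CPM, a log2 fold change of -0.77 (SE 0.12, adjusted p = 0.000258). Neither pair of groups overlapped, which held for 17.4% of all genes in the downward direction and 17.4% in the upward. *Moe* was not called in the fit of all 12 samples (adjusted p = 0.123). The 3 members with the largest differences between genotypes at D1 were near level with age: *prom* at -0.09 (SE 0.15), *crb* at -0.09 (SE 0.12) and *chp* at 0.17 (SE 0.15), none called.

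The interaction of genotype and age tests whether the ClkDN difference was itself unlike at D1 and D10. None of the 9 members was called, beside 0.777% of 9135 genes (0.493% up and 0.285% down). The value was most negative for *sdt* at -1.01 (SE 0.30, unadjusted p = 0.00362, adjusted p = 0.144), which was called with DESeq2 (adjusted p = 0.0495) and with scaling by library totals (adjusted p = 0.0236). It was most positive for *eys* at 0.65 (SE 0.36, adjusted p = 0.458), which was called only when both control libraries that stood apart were left out (1.16, adjusted p = 0.00665). For *crb* it was 0.07 (SE 0.30) and for *baz* 0.14 (SE 0.28). The different calls of *sdt*, *Patj* and *eys* at D1 and D10 are therefore not shown to be differences between the ages.

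Among themselves, *crb* and *prom* had the most similar profiles. Likeness was measured as the root mean square difference of log2(CPM + 1), centred on each gene's mean, over the 12 libraries, which share their scaling and depth. It was 0.21 for *crb* and *prom*, 0.41 for *eys* and *Moe* and 0.41 for *crb* and *chp*, and it was largest for *prom* and *baz* at 1.41. Among 4288 other genes that averaged 50 counts or more, the nearest to *prom* was *trp*, which encodes the main light-activated channel, at 0.16, followed by *crb* itself. The nearest to *crb* were *Synd*, which encodes a membrane-bending F-BAR protein, at 0.15 and *trp* at 0.16. *trp* was at 17236 ± 7316 CPM in Rh1>Ctrl and 4517 ± 521 in Rh1>ClkDN at D1, and *Synd* at 651 ± 195.1 and 227 ± 35.9 CPM (SD, n = 3). For *Patj* they were the RNA helicase gene *bel* at 0.21 and the chromatin remodeller gene *Mi-2* at 0.23.

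The counts for the wider gene lists stand beside 5.86% of all genes called down and 10.2% up at D1, and 8.20% and 15.0% at D10. Of 15 partner genes, *dlg1* and *cora* were called up at D1, and *par-1* and *kst* were among those called down. The counts were 2 up and 3 down. At D10 *Lkb1* and *kst* were called down and none up, but without replicate 2 of Rh1>Ctrl 5 were called down and 1 (*l(2)gl*) up, beside 11.8% and 19.5% of all genes. Without replicate 3 of Rh1>Ctrl at D1, 3 were called up and 2 down there, beside 17.8% and 10.6%. The median log2 fold change of the 15 genes was -0.01 at D1 and -0.12 at D10. *kst* encodes the heavy beta-spectrin that joins the Crumbs complex to the cortex. It went from 3544 ± 1282 CPM in Rh1>Ctrl to 1063 ± 62.5 in Rh1>ClkDN at D1 (log2 fold change -1.75, SE 0.23, adjusted p = 0.0006) and from 3624 ± 1911 to 741 ± 8.70 CPM at D10 (-2.35, SE 0.37, adjusted p = 0.00232). Without the control library that stood apart, *kst* was at -1.94 and -1.76. The genes of *aPKC* and *Cdc42*, partners of Par-6, were not called in either comparison of genotypes.

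Of 12 adherens junction genes, *shg*, *cno* and *pyd* were called down and *kirre* up at D1, and *cno*, *pyd*, *rst* and *rhea* down and *kirre* up at D10, with medians of -0.31 and -0.23. *kirre*, which encodes an immunoglobulin adhesion protein, went from 43.2 ± 9.31 to 232 ± 25.5 CPM at D1 (log2 fold change 2.38, SE 0.18, adjusted p = 2.43e-05). Its log2 fold change was 2.36 at D10, and 2.34 and 2.10 at D1 and D10 without the control library that stood apart. Without those libraries *CadN* was called down as well at D1, and *rhea* was not called at D10 (-0.49). Of 18 tested genes of rhabdomere growth and membrane traffic, the myosin genes *didum* and *ninaC* and the actin-binding *bif* were called down at D1 and none up. At D10 these 3 were called down together with *cher* and the exocyst gene *Sec5*, the last from 37.9 ± 27.0 to 10.9 ± 1.22 CPM (log2 fold change -1.82, SE 0.50, adjusted p = 0.0302), or -1.03 without replicate 2 of Rh1>Ctrl. Without the library that stood apart, *Lapsyn* was called up at D1 and *shi* down at D10 in addition. Of 10 tested regulators of *Moe* and the cortex, *Slik*, the kinase that activates Moesin, and *alpha-Spec* were called down at both ages. *alpha-Spec* was at -1.49 at D10, and at -0.72 without replicate 2 of Rh1>Ctrl, still called. *flw* was called down as well at each age without the library that stood apart. Medians were -0.21 and -0.35 for the rhabdomere list and -0.11 and -0.40 for the *Moe* list, at D1 and D10. In Rh1>Ctrl no gene of these lists was called between ages. Within Rh1>ClkDN, *Act42A* and the profilin gene *chic* rose from D1 to D10 by log2 fold changes of 1.14 and 0.95 and the dynamin gene *shi* fell by 1.02 on the log2 scale (SEs 0.37, 0.13 and 0.13, adjusted p = 0.0407, 0.000127 and 7.45e-05). The actin genes moved in opposite directions, as *Act5C* was called down (log2 fold change -0.70, SE 0.12, adjusted p = 0.000646). At D10 in Rh1>ClkDN *Act5C* averaged 133.1 CPM and *Act42A* 12.01 CPM. In the partner, junction and *Moe* lists, *Cdc42*, *shg* and *cno* were called up with age in Rh1>ClkDN (0.81, 0.63 and 0.66). There *ed* and *Mbs* were called down (-0.75 and -0.59).

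Of the transcription factor genes known to act on rhabdomere genes in the fly, *gl* was called down at both ages. It was at 1056 ± 379 CPM in Rh1>Ctrl and 287 ± 64.3 in Rh1>ClkDN at D1, a log2 fold change of -1.90 (SE 0.24, adjusted p = 0.000553), and the log2 fold change at D10 was -1.63 (SE 0.19, adjusted p = 0.000559). Without the library that stood apart it was -2.10 at D1 and -1.76 at D10. At D10 *Pph13* was called down, at -0.82 (adjusted p = 0.0443), and *oc* up, at 1.51 (adjusted p = 0.0172). At D1 neither was called. Without replicate 2 of Rh1>Ctrl *Pph13* was at -0.57 at D10 and not called, and *oc* was at 1.17, still called. Without replicate 3 of Rh1>Ctrl *Pph13* was at -0.87 at D1 and called (adjusted p = 0.000390), and *oc*, at 0.55, was not.

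Markers of cells moved with the genotype too. Of the 10 outer photoreceptor markers, 9 were called down at each age, with median log2 fold changes of -1.71 at D1 and -2.04 at D10. For *crb* and *prom* these values were -1.83 and -2.20 at D1 and -1.74 and -1.78 at D10. Without the library that stood apart, all 10 markers were called down at D1 (median -1.95) and 8 at D10 (median -1.68). *inaC* gained a call at D1 and *norpA* lost its call at D10. The values of *crb* and *prom* without these libraries are given above. Summed glial markers (7 genes, none at 0) were between 176.1 and 350.1 CPM in Rh1>Ctrl and between 943 and 1559 CPM in Rh1>ClkDN, where *Eaat1* alone gave 577 to 1336 CPM. Of these 7, 3 were called up at D1 and 2 at D10, and none down. Their median log2 fold change was 0.64 at D1 and -0.39 at D10, where *repo*, *Gs2*, *alrm* and *nrv2* had negative values, *Gs2* and *nrv2* with no overlap between groups. Without the library that stood apart the median was 0.98 at D1 and -0.02 at D10. At D10 *repo* then went from -1.22 to -0.31, and *Gs2*, *nrv2* and *alrm* were at -0.39, -0.28 and -0.02. The defining glial gene *repo* was between 1.77 and 9.37 CPM in Rh1>ClkDN and between 3.93 and 27.1 CPM in Rh1>Ctrl. Summed cone and pigment cell markers (7 genes) were between 487 and 1258 CPM in Rh1>Ctrl and between 2727 and 3886 CPM in Rh1>ClkDN. Most of this was *w*, which also marks UAS-GFP-Msp300KASH and, in the genotypes listed in the paper, the UAS-LacZ and UAS-ClkDN transgenes. Of the 6 markers tested, *w* and *sv* were called up at D1, only *w* at D10, and none down. Their median log2 fold change was 0.32 at D1 and 0.04 at D10, where *ct* and *Crys* were lower with no overlap between groups, though not called. Without the library that stood apart the median was 0.62 at D1 and -0.12 at D10. Of the 6 inner photoreceptor markers, only *pros* was called, up at D1. The muscle marker *Mhc* was called down at both ages (-1.14 and -1.76, or -1.31 and -0.89 without the library that stood apart). Without that library *Act88F* and *up* were called down at D1 too. The fat body markers *Yp1* and *Yp2* were called up at D10, where neither averaged above 5.47 CPM in either genotype. No haemocyte marker was called. The part of these differences in the values of *baz*, *sdt* and the other members was not tested.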

How the data were processed

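Nuclear RNA was sequenced from 12 samples. The authors deposited 1 table of counts per gene for 13929 genes. It was labelled as normalized, but all values were whole numbers and library totals differed 4.16-fold, so they were treated as raw read counts, which the sources do not state for this table. Of its value columns, 0 were unused. The submitters' processing notes name Trimmomatic, STAR, SAMtools, DESeq2, dm6 and BDGP6; versions and the use of strand are not given in the sources used here. Symbols, coordinates and exon lengths (the union of exons) came from Ensembl release 115, which matched 13866 genes.

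Each pair of groups was fitted with edgeR 4.0.16 (R 4.3.3; TMM, quasi-likelihood F test) over genes that reached 10 counts in 3 or more of the 6 samples, and the interaction over all 12 samples with an adjusted p under 0.05 as its only threshold. Standard errors were derived from the F statistic, as the size of the log2 fold change over its square root. CPM were scaled by TMM factors over the 12 samples. P-values set the difference between groups against the spread between replicates. Alternatives were RLE scaling, library totals, no filter, DESeq2 1.42.0, a replicate block, 1 fit of all 12 samples, no fold threshold and leaving out each replicate.

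Members, gene lists and markers were chosen with earlier results of these data known. By rule the text names all members, the 2 nearest genes of the 3 members with the largest changes, and per comparison up to 3 called list genes with the largest changes and no overlap. Other called list genes were named after their values were seen. A motif search of promoters was not run, and promoter sequence was not used here. The result of 1 gene of the polarity list is not reported here.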

Additional observations from a re-analysis of the deposited data

How the results depend on the processing

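No log2 fold change of a called member changed sign under any alternative. *crb* and *prom* were called down in all 12 alternatives at both ages, and *chp* in 12 at D1 and 8 at D10. *sdt* fell with age in Rh1>ClkDN in all 12. At D1, 0 members were called up with RLE scaling, with no filter and with the replicate block, and 3 were called down with no filter. Leaving out 1 replicate gave 0 to 1 called up and 3 to 6 down at D1, and 0 to 1 up and 2 to 6 down at D10. Between ages, 3 members were called down in Rh1>Ctrl without both libraries that stood apart (chosen after seeing the data), and 1 in Rh1>ClkDN in the fit of all 12 samples. For the interaction, 1 member was called down with library totals and 1 with DESeq2, and 1 up without both libraries. The cause of these changes was not tested.

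Over all genes, calls ranged from 748 to 2206 at D1, 545 to 2450 at D10, 1 to 357 with age in Rh1>Ctrl, 303 to 1539 in Rh1>ClkDN and 14 to 306 for the interaction. With no filter the median of all genes was -0.19 at D1 and 0.30 at D10, and 72.0% and 69.7% of called genes were up, beside 63.6% and 64.6%. Samples with the same replicate number did not deviate together (correlations from -0.21 to 0.10), so the numbers were not taken as pairs. With the replicate block *eys* (adjusted p = 0.0913) and *baz* (0.0772) were not called at D1, *Patj* was (0.0302), and at D10 *sdt* was not (0.0700). *par-6* and *Patj* had the fewest counts of the members, and the part of depth in their spread was not tested.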
